A study of Mus musculus with 6 samples.

Results

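The genes described here encode the proteins of the cytosolic ribosome, followed in bone RNA of wild-type mice and of mice that lack the miR-29cb2 cluster. A gene was taken when its annotation was protein coding and its symbol was Rpl or Rps followed by a digit, or Rplp0, Rplp1, Rplp2 or Rpsa. Of 392 gene rows with such a name, 290 were annotated as pseudogenes, 6 had a pseudogene name and 10 were Rps6k kinases, and these were left out. The remaining 86 genes, of 54532 in the table, comprised 46 proteins of the large subunit, 31 of the small subunit, 7 paralogues and 2 genes whose products are not ribosomal subunits (Rpl7l1 and Rps19bp1). The subunit protein gene Fau does not carry a matching symbol and was counted in another list.

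RNA sequencing had been carried out on bone of female C57BL/6J mice aged 16 weeks, with 3 libraries of wild-type genotype and 3 of the genotype 29cb2-/-, called knockout here. The microRNA precursors of miR-29c and miR-29b-2, lie in the cluster, and the comparison asks which RNAs differ in bone in its absence. The labels name neither the bone nor whether marrow was removed. They also leave unsaid whether 1 animal gave 1 library, and the p-values therefore reflect variation among 6 libraries that can be technical in part. Values below are FPKM, fragments divided by exon length and by library size, and lists of values run from library 1 to library 3 of each genotype.

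A cytosolic ribosome has a small subunit, which reads the mRNA, and a large subunit, which joins amino acids. Each subunit protein is as a rule present in 1 copy per ribosome, the stalk proteins Rplp1 and Rplp2 apart, and the genes are known for coordinated expression. Many of their mRNAs begin with a C and a run of pyrimidines, the 5′ terminal oligopyrimidine (TOP) motif, through which mTORC1 and Larp1 control translation. In bone and marrow, ribosome output is best known from red cell precursors, which are sensitive to the loss of several ribosomal proteins.

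The reads recovered from the FPKM values numbered 17987943 to 21620391 per library. They differ from the library sizes behind the FPKM values, which ran from 16578350 to 20596651. Recovered reads exceeded that size most in wild-type library 2 (21620391 against 19514680) and knockout library 1 (18869834 against 16578350). In wild-type library 1 they fell below it (20244237 against 20596651). Whether this bears on the order of libraries described below was not tested. Wild-type library 2 and knockout library 1 stood apart from the other 4, with summed FPKM of 489576 and 487102 against 355787 to 404994 in the others. Mir29b-2 and Mir29c were listed at 0 in all 6 libraries and so do not check the genotype labels. Their annotated host transcript, A330023F24Rik, was at 0.162 ± 0.0315 (SD, n = 3) in the wild type and 3.28 ± 0.788 (SD, n = 3) in the knockout. Fewer cells of a type and less RNA per cell cannot be told apart in bulk samples such as these.

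The starts of these genes were searched for the TOP motif, a feature that the choice of members did not use. RefSeq promoter entries (GRCm38.p6) were matched for 66 members, 57 of them subunit genes. A C followed by at least 4 further pyrimidines stood at the annotated start in 13 of these 57 subunit genes (22.8%) and in 3.01% of the 27025 genes with an entry. The motif CTTTT or CTCTT, searched on the gene's own strand only, within 10 bases on either side of the start, was present in 14 of the 57 (24.6%) and in 6.36% of all genes, and it may overlap the pyrimidine run. Annotated starts can lie some bases from the start in use, and 10 members had several annotated starts, so these shares describe the annotation. Such a start was lacking in 44 of the 57 subunit genes, and Rpl11 and the paralogue Rpl22l1 had no run at theirs. Below are 15 bases before and 15 after the start, 5′ to 3′. They are shown for 7 subunit genes with a clear run and for the muscle paralogue Rpl3l, which also has none at this start. Capitals mark the pyrimidine run from the annotated start.
Rps6: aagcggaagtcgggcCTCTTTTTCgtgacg
Rplp2: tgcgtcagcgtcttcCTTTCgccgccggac
Rpl28: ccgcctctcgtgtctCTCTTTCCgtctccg
Rps18: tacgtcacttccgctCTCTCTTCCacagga
Rpl15: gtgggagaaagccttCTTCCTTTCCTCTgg
Rpl35: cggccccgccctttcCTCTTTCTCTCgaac
Rps10: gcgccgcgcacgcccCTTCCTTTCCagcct
Rpl3l: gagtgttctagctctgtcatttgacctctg
These windows lie at chr4:86857353-86857382 (minus strand) for Rps6, chr7:141447636-141447665 (plus) for Rplp2, chr7:4792950-4792979 (plus) for Rpl28 and chr17:33955651-33955680 (minus) for Rps18. The others lie at chr14:18270972-18271001 (minus) for Rpl15, chr2:39005117-39005146 (minus) for Rpl35, chr17:27635230-27635259 (minus) for Rps10 and chr17:24727811-24727840 (plus) for Rpl3l. The run was longest in Rpl15, at 13 bases, and was 9 in Rps6 and 5 in Rplp2. The subunit genes with such a start had a median level of 334 FPKM, and those without one had 316. Their median difference between the genotypes was 0.16 and 0.15 on the log2 scale.

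Ribosomal protein RNA was abundant in every library. Members took 7.76%, 9.17% and 8.42% of all FPKM in the wild-type libraries and 10.3%, 8.85% and 8.03% in the knockout libraries. These shares average 8.45 ± 0.703% (SD, n = 3) and 9.05 ± 1.13% (SD, n = 3), and the groups overlap. As shares of recovered reads, which count long genes in full, the values were 4.61%, 6.53% and 5.36% against 7.16%, 5.55% and 4.89%. The balance between the subunits was steady: summed FPKM of the large subunit was 1.40, 1.33 and 1.34 times that of the small subunit in the wild type and 1.37, 1.33 and 1.38 times in the knockout.

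By length-scaled level the family was led by the stalk protein gene Rplp1, a member of the group that recruits elongation factors to the large subunit. Rplp1 stood at 2373, 4521 and 2871 FPKM in the wild type and 4427, 2852 and 2520 in the knockout, and took 8.76% of the members' summed FPKM. After it came the small subunit gene Rps3a1 at a mean of 1777 FPKM over 6 libraries, the stalk base gene Rplp0 at 1412, the small subunit gene Rps15 at 1336 and the large subunit gene Rpl36 at 1116. The 5 highest genes held 23.9% of the members' FPKM and the 10 highest held 35.8%. Compared within each library, Rps3a1 lay above Rplp0 and Rps15 above Rpl36 in all 6, while Rplp0 and Rps15 changed places in wild-type library 2. Across libraries Rps3a1 ran from 1311 to 2427 FPKM and Rpl36 from 820 to 1574. At the other end were Rpl10l, a paralogue known from male germ cells and listed at 0 in all 6 libraries, the intronless copy Rpl36al at 1.53 FPKM and the germ cell paralogue Rpl39l at 2.48. The lowest subunit genes were Rps10 at 3.72 and Rpl24 at 11.1 FPKM.

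Part of the range among subunit genes went with what was counted as exon. FPKM divides by the union of annotated exons, which ran from 383 to 6270 bases in subunit genes, while their longest coding sequences ran from 141 to 1260 bases. Between the 10th and the 90th percentile of the 77 subunit genes, mean FPKM spanned 6.69-fold. Recovered reads per kilobase of coding sequence, scaled to 1000000 reads of the library size behind the FPKM values, spanned 2.74-fold. On that scale Rpl41, whose product is the smallest protein of the ribosome, was highest at 8643, followed by Rplp1 at 4716. Rps10 and Rpl24 remained lowest on it, at 16.8 and 24.1.

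Many members have processed pseudogenes of similar sequence, and reads of such genes can be split. Of the 77 subunit genes, 59 had at least 1 pseudogene named after them in the table. Over all 77, with genes lacking one counted as having no such reads, the median share of a gene's reads on named pseudogenes was 0.148%. The share was above 10% for 9 genes and above 50% for 2. For Rps10 it was 96.7%: Rps10 itself was at 2.83 to 4.88 FPKM, and Rps10-ps2 was at 349 to 604. For Rpl21 it was 55.5%, for Rpl17 49.0% and for Rps12 44.7%. Rpl24, also among the lowest subunit genes, had no named pseudogene. The level of such a gene is uncertain, since how reads with several matches were placed is not given in the sources used here. Over the whole family, pseudogenes named after a ribosomal protein gene took 3.42% to 3.70% of the family's reads in each library, a similar share in both genotypes. Any pseudogenes under other symbols were not counted.

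The subunit genes varied together from library to library, and this variation did not follow genotype. In 73 of the 77, wild-type library 2 and knockout library 1 were the 2 highest libraries. Knockout library 1 was the highest in 61 genes and wild-type library 1 the lowest in 69. The median deviation of a subunit gene from its own mean was -0.39, 0.28 and -0.08 on the log2 scale in the wild type and 0.46, -0.05 and -0.21 in the knockout. All 77 lay above their own mean in knockout library 1, and none did in wild-type library 1 or knockout library 3. The 4 genes with another order were Rpl3, Rpl11, Rps2 and Rps12. When the reads of its pseudogenes were added, Rps12 also had the usual order.

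**Figure D1:**
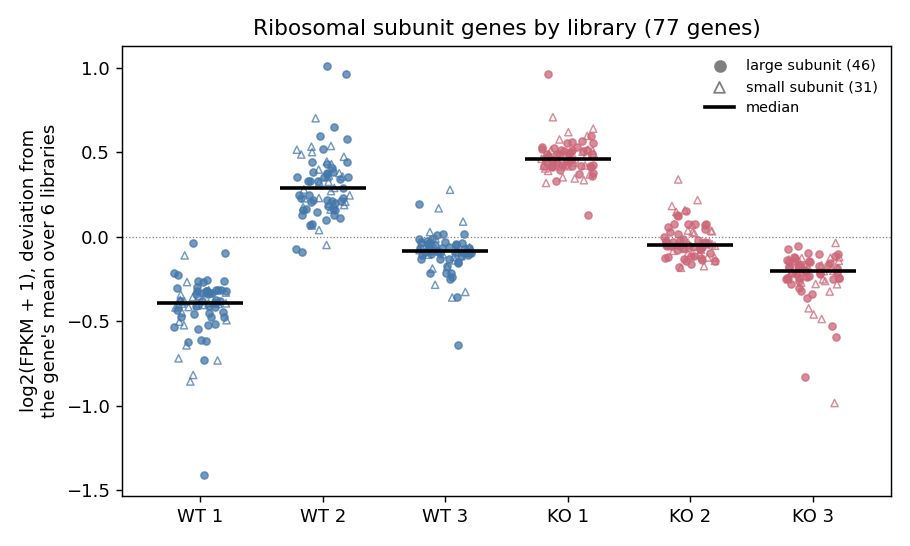
Each point is 1 of 77 subunit genes in 1 library (large subunit, filled circles; small subunit, open triangles), as its log2(FPKM + 1) minus its mean over 6 libraries; black bars are medians. The genes lie together in each library, with medians from -0.39 in wild-type library 1 to 0.46 in knockout library 1.

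Other transcripts also differed between the libraries. Summed FPKM of 6 erythroid markers was 21634, 47495 and 31743 in the wild type and 39818, 24507 and 23383 in the knockout, with none of the 6 called in either direction and none at 0. Summed FPKM of 6 mature neutrophil markers was 21176, 40674 and 32632 against 49488, 42889 and 38097, again with no call. Deviation from the mean was related to exon length across all genes tested, with Spearman's rho of 0.28, -0.33 and 0.13 in the wild type and -0.33, 0.19 and 0.33 in the knockout. Among the 77 subunit genes the same rho was 0.04, -0.14, 0.22, -0.21, 0.06 and 0.06; these are correlations across genes, which are not independent replicates. The 2 libraries that stood apart thus had the most erythroid RNA and relatively more of short transcripts. The part of either in the ribosomal protein order was not tested.

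Between the genotypes, none of the 85 members tested passed limma's test at a Benjamini-Hochberg adjusted p of 0.05. In the same fit 703 of 13619 genes passed (5.16%), of which 183 (1.34%) rose and 520 (3.82%) fell in the knockout. At an unadjusted p under 0.05 the members numbered 3 (3.53%), Rpl3l, Rps27rt and Rpl7l1, against 20.6% of all genes. Limma's voom on the recovered reads called 1 member, Rpl3l, against 6.3% of all genes. Groups did not overlap in 4 members (4.71%), 3 higher and 1 lower, against 28.4% of all genes. That share and the share at an unadjusted p under 0.05 were both below the background, a difference that was not tested. The genes also scatter more: the median SD of log2(FPKM + 1) over 6 libraries was 0.33 for subunit genes and 0.23 over all genes tested.

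The direction was mostly upward in the knockout but small. Of the 85, 77 had a log2 difference above 0 (90.6%, against 59.1% of all genes), with a median of 0.16 against 0.06. These genes vary together between libraries, so their common sign is not a set of separate observations. With libraries weighted by their spread it held for 67 of 85, and it changed with the libraries used: without wild-type library 1, 40 of 85 were above 0 (median -0.0073), and without knockout library 1, 30 were (median -0.05). Without both libraries that stood apart, 76 were above 0, with a median of 0.11, and with wild-type library 2 left out the median was 0.30.

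**Figure D2:**
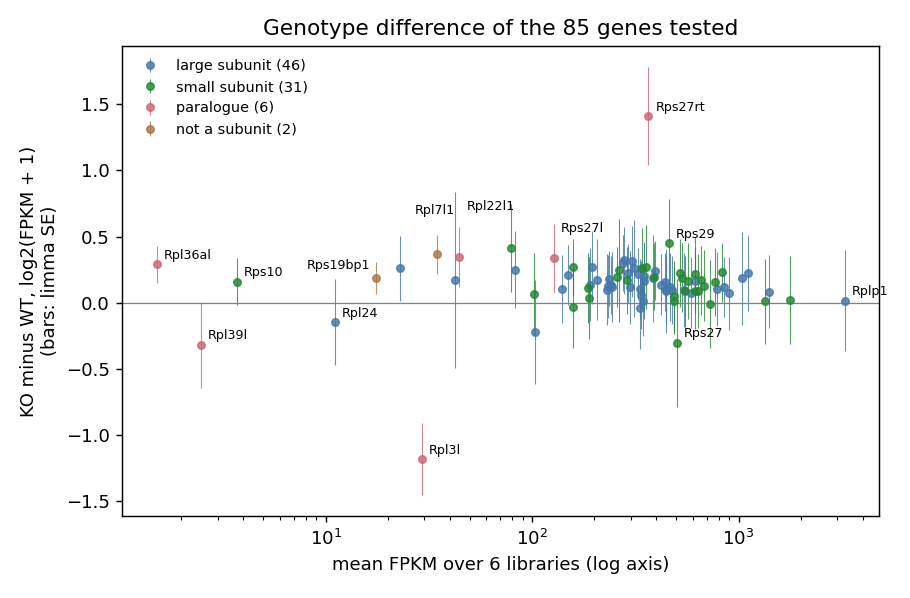
Each point is 1 of the 85 members tested, with its mean FPKM over 6 libraries (log axis) and its knockout minus wild-type difference in log2(FPKM + 1); bars are limma standard errors. Subunit genes lie between -0.30 and 0.45, while the paralogues Rps27rt (1.41), Rpl3l (-1.18) and Rpl39l (-0.32) lie outside that range.

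In the large subunit 43 of 46 genes were above 0, with a median of 0.13 and a range from -0.22 (Rpl7a) to 0.32 (Rpl39). No subunit gene reached an unadjusted p under 0.05, and none had groups without overlap. The stalk genes differed little: Rplp0 by 0.08 (SE 0.28), Rplp1 by 0.02 (SE 0.38) and Rplp2 by -0.04 (SE 0.31), and each changed sign under at least 1 other setting. Rpl5 and Rpl11 form the particle with 5S ribosomal RNA that can bind Mdm2 when ribosome assembly is disturbed. Rpl11 was at 216, 254 and 264 FPKM in the wild type and 389, 279 and 249 in the knockout, and had the lowest adjusted p of any subunit gene (log2 difference 0.30, SE 0.21, limma adjusted p = 0.502). Its knockout values exceed the wild-type ones in libraries 1 and 2 only, and the groups overlap. Rpl5 differed by 0.18 (SE 0.21). Rpl3, which lies close to the catalytic centre, differed by 0.22 (SE 0.20), and Rpl39, in the exit tunnel, by 0.32 (SE 0.26). These values lean on knockout library 1: without it Rpl11 differed by 0.11, Rpl5 by 0.0139, Rpl3 by 0.0649 and Rpl39 by 0.15.

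The most variable subunit gene was Rpl21, at 12.8, 70.8 and 41.0 FPKM in the wild type and 70.8, 39.1 and 19.7 in the knockout (SD 0.96 on the log2 scale). It is also among the genes with most reads on a pseudogene, and its genotypes overlap throughout. The least variable were Rpl4 (SD 0.20), Rps2 (0.22) and Rpl3 (0.22).

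In the small subunit 28 of 31 genes were above 0, with a median of 0.16 and a range from -0.30 (Rps27) to 0.45 (Rps29). Rps29, a small zinc-binding protein of the subunit head, was at 264.9, 567 and 348 FPKM in the wild type and 681, 496 and 395 in the knockout (SE 0.34, limma adjusted p = 0.523). The spread within each genotype was as wide as the distance between them. Rps6, the subunit protein phosphorylated by the S6 kinases, was at 574, 895 and 714 FPKM in the wild type and 1000, 738 and 688 in the knockout (0.16, SE 0.26). Rps19, the gene most often mutated in Diamond-Blackfan anaemia, differed by 0.27 (SE 0.21), but by 0.09 without knockout library 1. Rpsa, also known as the laminin receptor precursor, differed by 0.09 (SE 0.28), with a sign that turned without wild-type library 1 or knockout library 1. Rps27a, made as a fusion with ubiquitin, differed by 0.27 (SE 0.32).

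The widest differences in the family were those of the paralogues Rps27rt (1.41) and Rpl3l (-1.18). Other paralogues tested ran from -0.32 (Rpl39l) to 0.35 (Rpl22l1), smaller in size than the difference of the subunit gene Rps29 (0.45). Of the 6 paralogues that could be tested, 4 were above 0 and 2 below, and none passed the adjusted threshold. Two-sided exact permutation tests were run on the log2 ratio of paralogue to parent in 7 pairs, of which Rps27rt to Rps27 was chosen after its values were seen. With 3 against 3 libraries the smallest p is 0.1, and the Benjamini-Hochberg adjusted p was 0.233 for 6 pairs and 0.7 for Rpl36al to Rpl36a.

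Rpl3l, which replaces Rpl3 in ribosomes of striated muscle, lies at chr17:24727820-24736143 on the plus strand. It was at 35.7, 55.9 and 31.7 FPKM in the wild type and 14.7, 14.02 and 23.8 in the knockout. All 3 knockout libraries lay below all 3 wild-type ones, with means of 41.1 ± 12.9 (SD, n = 3) and 17.5 ± 5.45 (SD, n = 3). The log2 difference was -1.18 (SE 0.27), just outside the threshold with limma (adjusted p = 0.0561). It passed with each library's exon-length trend removed (-1.18, adjusted p = 0.0424, 8.93% of all genes called), with array weights (-1.08, adjusted p = 0.00856, 24.6% called), with voom (-1.23, adjusted p = 0.0404) and without knockout library 3 (-1.41, adjusted p = 0.049, 2.49% called). It did not pass under the other settings, where the adjusted p ran up to 0.186 (without knockout library 2), and without both libraries that stood apart the difference was -0.85 (adjusted p = 0.138). The ratio of Rpl3l to Rpl3 was lower in the knockout by 1.40 on the log2 scale, with groups that do not overlap (exact permutation p = 0.1, n = 3).

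Skeletal muscle markers moved with Rpl3l. Of 16 such markers fixed in a list, 15 were tested, and 6 were called lower by limma (adjusted p under 0.05), against 3.82% of all genes. None was called higher, and the median log2 difference of the 15 was -1.19. Summed FPKM of the 16 markers was 7438, 11964 and 6423 in the wild type and 3183, 3282 and 4639 in the knockout, and none was at 0. Per 1000 FPKM of these markers, Rpl3l stood at 4.80, 4.67 and 4.94 in the wild type and 4.61, 4.27 and 5.13 in the knockout. These ratios average 4.81 ± 0.135 (SD, n = 3) and 4.67 ± 0.430 (SD, n = 3) and overlap (two-sided exact permutation p = 0.6). The library with the most muscle marker RNA, wild-type library 2, also had the most Rpl3l.

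**Figure D3:**
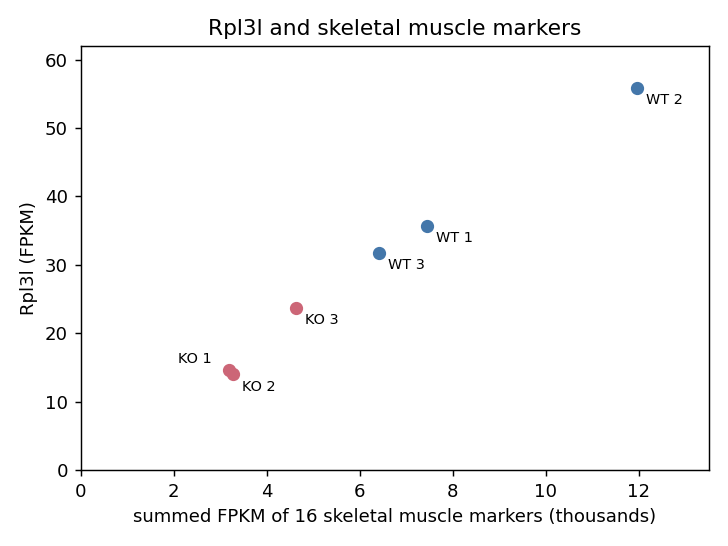
Rpl3l (FPKM, vertical axis) is plotted against the summed FPKM of 16 skeletal muscle markers (in units of 1000, horizontal axis), with 1 point per library (wild type blue, knockout red). Per 1000 FPKM of the markers the 6 points run only from 4.27 to 5.13.

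Rps27rt is an intronless copy of Rps27, a small subunit gene, at chr9:114982366-114982739 on the minus strand, with the parent at chr3:90212522-90213651, also minus. Their annotated coding sequences are identical over all 255 bases. The identity extends into the annotated start, where the promoter entries share a 38-base stretch; the windows below show its first bases in capitals.
Rps27: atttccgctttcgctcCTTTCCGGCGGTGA
Rps27rt: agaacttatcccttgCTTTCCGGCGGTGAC
The windows lie at chr3:90213634-90213663 and chr9:114982725-114982754, both on the minus strand. The shared stretch begins at base 2 from the annotated start of Rps27 and at base 1 of Rps27rt, and the bases before it differ.

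Rps27rt was at 273, 209 and 122 FPKM in the wild type and 344, 548 and 700 in the knockout. Every knockout library lay above every wild-type one, with means of 201 ± 75.7 (SD, n = 3) and 531 ± 179 (SD, n = 3). The log2 difference was 1.41 (SE 0.37, limma adjusted p = 0.0812). It passed with array weights (1.95, limma adjusted p = 0.00332, 24.6% of all genes called). Under the other settings it did not pass, and limma's adjusted p ran from 0.0507 (voom) to 0.278 (centred on the members). The parent ran the other way in part, at 319, 748 and 558 FPKM against 751, 407 and 232 (-0.30, SE 0.48, limma adjusted p = 0.787).

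Because the coding sequences are identical, the reads of both genes are best read together. Their exons, of 1043 bases in Rps27 and 374 in Rps27rt, were compared only there and at the start. Rps27 and Rps27rt held 6861 and 2103 reads in wild-type library 1, 15228 and 1522 in library 2, and 10496 and 825 in library 3. In the knockout they held 12991 and 2131 reads in library 1, 7396 and 3568 in library 2, and 4184 and 4531 in library 3. The copy thus took 23.5% of the summed reads (95% Wilson interval 22.6% to 24.3%), 9.09% and 7.29% in the wild type and 14.1%, 32.5% and 52.0% in the knockout, and the groups overlap (two-sided exact permutation p = 0.2, n = 3). Such intervals cover counting error only. Summed over both genes and scaled to 1000000 reads, the values were 435, 858 and 627 in the wild type and 912, 630 and 504 in the knockout. The scaling used the library size behind the FPKM values, not the total of recovered reads. The sum ranks the libraries as the subunit medians do, and its genotypes differed by 0.10 on the log2 scale (two-sided exact permutation p = 0.7, n = 3).

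**Figure D4:**
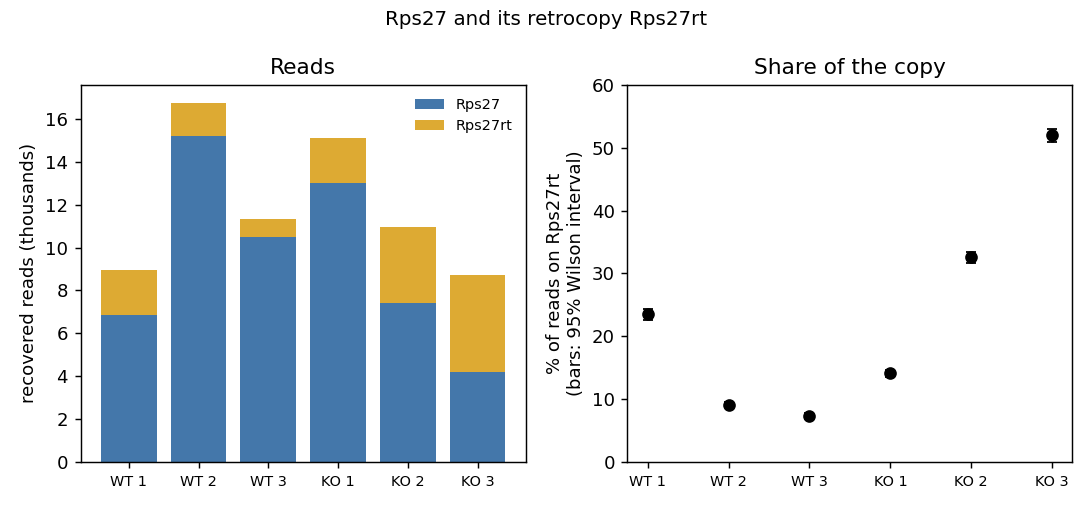
Left, recovered reads (in units of 1000) on Rps27 (blue) and its intronless copy Rps27rt (yellow), stacked per library; right, the percentage of those reads on Rps27rt with 95% Wilson intervals. The share runs from 7.29% in wild-type library 3 to 52.0% in knockout library 3, and wild-type library 1 (23.5%) lies above knockout library 1 (14.1%).

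Rpl22l1 can take the place of Rpl22 in the large subunit. It was at 30.7, 48.7 and 37.4 FPKM in the wild type and 63.0, 45.7 and 40.5 in the knockout (0.35, SE 0.23, limma adjusted p = 0.459), a difference of 0.17 without knockout library 1 and 0.19 without wild-type library 1. Against Rpl22 the separation was cleaner: the ratio of their FPKM was 0.306, 0.273 and 0.289 in the wild type and 0.354, 0.326 and 0.351 in the knockout, with no overlap. The log2 ratio was higher by 0.24 (exact permutation p = 0.1, n = 3, the smallest possible). The coding sequences share 68.2% of aligned bases, with no identical run above 26 bases.

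Among the other relatives, Rps27l, a p53 target with 76.1% coding identity to Rps27, differed by 0.34 (SE 0.26), and by 0.12 to 0.58 with 1 library left out. Its ratio to Rps27 was higher by 0.64 (exact permutation p = 0.2, n = 3), or 0.31 without knockout library 3, a value that contains the uncertain split of reads between Rps27 and Rps27rt. Rpl7l1, a factor of large subunit assembly, was at 26.9, 33.6 and 29.6 FPKM in the wild type and 45.4, 36.3 and 35.6 in the knockout, without overlap (0.37, SE 0.15, limma adjusted p = 0.222). It passed with array weights (0.31, adjusted p = 0.0330). Rpl36al, at 28 to 44 reads per library, was higher in each knockout library than in any wild-type one (0.29, SE 0.14, limma adjusted p = 0.304), but its ratio to Rpl36a was not separated (0.12, exact permutation p = 0.7, n = 3). Rpl39l had 20 to 70 reads per library and differed by -0.32 (SE 0.33), with the groups overlapping, and by -0.0597 without wild-type library 2. Rps19bp1, which binds Rps19, differed by 0.19 (SE 0.12), or 0.12 without wild-type library 1.

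Genes that build or work with the ribosome were compared in the same fit. Of 36 ribosome biogenesis factors none passed the adjusted threshold with limma, and none did with voom, but 34 were above 0, with a median log2 difference of 0.39. At an unadjusted p under 0.05 there were 20 (55.6%, against 20.6% of all genes), and in 22 (61.1%, against 14.7%) every knockout library lay above every wild-type one. Without both libraries that stood apart, 24 of 36 (66.7%) had an unadjusted p under 0.05, against 23% of all genes, and again none passed. Rrp12, an export factor of both subunits, was at 4.44 ± 0.362 FPKM in the wild type and 6.38 ± 0.332 in the knockout (SD, n = 3), a log2 difference of 0.44 (limma adjusted p = 0.0661). The nucleolar GTPase gene Gnl3 differed by 0.45 and the box C/D particle gene Nop58 by 0.44.

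Markers of neutrophil precursors moved in the same direction as the biogenesis factors. Of 4 such markers 3 were called higher by limma (adjusted p under 0.05), against 1.34% of all genes. Summed FPKM of the 4 was 939 to 1316 in the wild type and 2382 to 3528 in the knockout, with none at 0. Of 7 markers of B cell precursors 2 were called lower, against 3.82% of all genes. So were 4 of 4 tested chondrocyte, 3 of 3 tested adipocyte, 2 of 6 osteoblast and 2 of 4 osteocyte markers. The part of these differences in the values of the biogenesis factors was not tested.

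Of 32 cytosolic translation factors none passed with limma and 28 were above 0 (median 0.17). An unadjusted p under 0.05 was reached by 3 (9.38%, against 20.6% of all genes), 1 passed with voom (against 6.3%), and in 10 (31.3%, against 14.7%) every knockout library lay above every wild-type one. The gene of the helicase that unwinds mRNA leaders, Eif4a1, was at 102 ± 7.28 FPKM in the wild type and 167 ± 24.4 in the knockout (SD, n = 3), a log2 difference of 0.70 (limma adjusted p = 0.0552). Eif2s1 differed by 0.53 and Eif3c by 0.37. Of 10 genes for ubiquitin fusions and ribosome-associated proteins none passed with limma or voom, and 9 were above 0 (median 0.25). In this list 3 of the 10 had an unadjusted p under 0.05, against 20.6% of all genes. In 5 of the 10 every knockout library lay above every wild-type one, against 14.7% of all genes. The list also holds Nacc1 and Hnrnpa1, which are not known to bind ribosomes, so its median is not that of ribosome-bound proteins alone. In that list Npm1 differed by 0.66 and Hnrnpa1 by 0.49, and they encode a nucleolar chaperone and an RNA-binding protein rather than subunits. Of 7 snoRNA host genes, which are known for TOP starts, all were above 0 (median 0.37). An unadjusted p under 0.05 was reached by 1 (14.3%, against 20.6% of all genes), and none passed with limma or voom. Without both libraries that stood apart it was reached by 4 of the 7 (57.1%, against 23% of all genes), and again none passed.

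The pathways that control ribosome output gave mixed values. Of 17 genes of the mTORC1 pathway none passed with limma or voom, 12 were above 0 (median 0.04, or -0.0076 with the exon-length trend removed) and 3 had an unadjusted p under 0.05 (17.6%, near the 20.6% of all genes). Those were the pathway's inhibitor Ddit4 (log2 difference 0.67), the TOP mRNA-binding protein gene Larp1 (0.50) and Myc (0.42). Of 13 p53 targets tested none passed with limma and 1 did with voom, against 6.3% of all genes. Of the 13, 7 were above 0 (median 0.02, or -0.0108 with the exon-length trend removed). An unadjusted p under 0.05 was reached by 3 (23.1%, against 20.6%) in differing directions: Phlda3 (-0.88), Ccng1 (-0.39) and Aen (0.32).

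The mitochondrial ribosome, made of other proteins, also lay mostly above 0. Of its 77 genes tested, 65 were above 0 (median 0.11). Among the 77, 3 had an unadjusted p under 0.05, against 20.6% of all genes. Limma called 1 of the 77 higher, against 1.34% of all genes. That was Mrpl19, which rose from 4.37 ± 0.166 to 7.43 ± 1.22 FPKM (SD, n = 3; log2 difference 0.64, limma adjusted p = 0.0408). Genes listed by symbol as respiratory chain subunits lay the other way: 11 of 74 were above 0. Their median was -0.17, or -0.0724 without both libraries that stood apart. By limma 1 of the 74 was called lower, against 3.82% of all genes. The gene called lower, Ndufa4l2, went from 7.63 ± 3.34 to 1.49 ± 0.180 FPKM (SD, n = 3). Its log2 difference was -1.73 (limma adjusted p = 0.0198). It entered the list by the pattern of its symbol, and whether its product is a chain subunit was not checked. The muscle isoforms Cox6a2 (-1.01) and Cox7a1 (-0.96) had the next lowest p-values in this list and did not pass. All 14 core proteasome genes were above 0 (median 0.22), with none at an unadjusted p under 0.05 and none called by limma or voom.

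**Figure D5:**
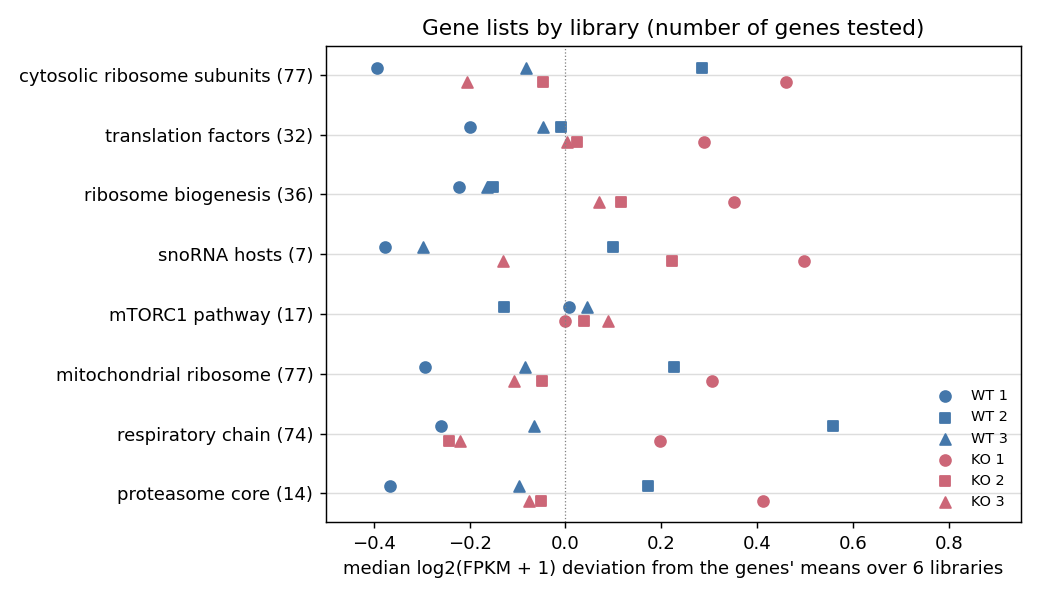
Each row is a gene list and each symbol 1 library (wild type blue, knockout red; circle, square and triangle for libraries 1, 2 and 3), placed at the median deviation of the list's log2(FPKM + 1) values from their means over 6 libraries. In ribosome biogenesis all 3 wild-type medians (-0.22 to -0.15) lie below the knockout ones (0.07 to 0.35), while in the cytosolic ribosome they interleave. The translation factors also separate, but narrowly: their highest wild-type median is -0.0085 and their lowest knockout median 0.0022.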

How the data were processed

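RNA had been sequenced from 6 bone libraries, and the authors deposited FPKM values for 54532 genes. Bowtie 0.12.2 and the build mm10 are named, per the submitters' processing notes. Counting, annotation, strand and scaling were not given in the sources used here. Groups came from the sample titles and genotype labels. Gene identifiers were matched to GENCODE M21 (54495 matched). The 13619 genes whose mean FPKM reached 1 were tested on log2(FPKM + 1) with limma 3.58.1 (R 4.3.3), with a variance trend and Benjamini-Hochberg adjustment over all of them at 0.05; fold changes on this scale understate low genes. FPKM times exon length gave whole reads for 96.9% of 29600 genes (tolerance 0.01 reads), but for chromosomes 17, 18 and 19 a share of 17.5%, 47.3% and 46.9% of genes was not whole, and their reads were rounded. These reads served limma's voom as an added alternative, which called 857 genes. Paralogue ratios were tested with SciPy 1.17.1.

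Named genes were those past the threshold, the 6 rising and 6 falling members of smallest p, the 5 highest and 5 lowest by mean FPKM, the 3 most and 3 least variable, and a set of subunits and paralogues; of other lists, up to 3 of smallest p, with 1 such gene not reported here. Other subunit genes are named only as ends of a range, for reads shared with pseudogenes, for their start sequence or for their order of libraries, and those were chosen after their values were seen. Members and lists were chosen with earlier results of these data known. On simulated data of this design (12950 genes), the fit recovered 12% of genes changed 1.5-fold, 80% at 2-fold and 96% at 4-fold. Of its 153 calls 9 were false. The simulation gave every gene the same dispersion (0.0228) and no shift shared within a library. Members tested had a median SE of 0.27 against 0.16 over all genes tested, so these rates do not carry over to the members. Alternatives covered pseudocount, filters, scaling, centring on the members, exon-length trend, array weights, variance trend, voom, a replicate block and left-out libraries. Cell type markers were read from fixed lists, including 7 of cardiac or slow muscle, of which 4 were tested and none called.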

Additional observations from a re-analysis of the deposited data

How the results depend on the processing

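Over 34 named members and 17 alternative settings, 575 alternative log2 differences were computed: 517 kept their direction and side of the threshold, 52 changed sign and 6 came past the threshold. The count over all genes was 143 with no filter, 365 with a mean FPKM of at least 5, 186 when centred on the members, 1216 with the exon-length trend removed, 3354 with array weights, 239 without both libraries that stood apart, and 62 to 418 with 1 library left out. Members called were 1 with the exon-length trend removed (Rpl3l), 3 with array weights (Rpl3l, Rps27rt, Rpl7l1), 1 with voom (Rpl3l) and 0 to 1 with 1 library left out. The members' share of recovered reads in place of FPKM was 5.50% in the wild type and 5.87% in the knockout. The main fit did not pair same-numbered libraries, whose deviations from their group means correlated at -0.49, -0.27 and 0.16. The deviations of wild-type library 2 and knockout library 1 correlated at 0.55. Such values cannot decide whether the libraries were paired by design. The fit with a replicate block called 127 genes and no member. Signs turned with array weights for Rpl24 (0.0516), Rpl7a (0.31), Rplp0 (-0.0581), Rplp1 (-0.0023), Rps15 (-0.0710) and Rpsa (-0.0029). Centring on the members lowers every gene by the same amount and so turned small values, those of Rplp0 (-0.0070), Rplp1 (-0.0746), Rps15 (-0.0813), Rps3a1 (-0.0693) and Rpsa (-0.0051). Signs also turned with the length trend removed for Rplp1 (-0.0310) and Rps15 (-0.0203), and without both libraries that stood apart for Rpl7a (0.11) and Rplp2 (0.0470). With 1 library left out in turn, the log2 difference ran from -0.0112 to 0.26 for Rpl10, -0.49 to 0.70 for Rpl21, -0.0948 to 0.32 for Rpl22, -0.39 to 0.14 for Rpl24, -0.10 to 0.43 for Rpl36a, -0.0157 to 0.21 for Rpl4, -0.08 to 0.45 for Rpl41, -0.0876 to 0.27 for Rpl7 and -0.60 to 0.23 for Rpl7a. It ran from -0.11 to 0.20 for Rplp0, -0.23 to 0.28 for Rplp1, -0.28 to 0.24 for Rplp2, -0.21 to 0.23 for Rps15, -0.73 to 0.11 for Rps27, -0.0701 to 0.50 for Rps27a, -0.17 to 0.27 for Rps3a1, -0.0902 to 0.27 for Rps4x, -0.0071 to 0.32 for Rps6 and -0.10 to 0.29 for Rpsa, and for the log2 ratio of Rpl36al to Rpl36a from -0.0848 to 0.30. The range without 1 library, with no change of sign, was 0.11 to 0.43 for Rpl11, 0.0139 to 0.28 for Rpl5, 0.0649 to 0.30 for Rpl3, 0.0156 to 0.37 for Rpl36, 0.13 to 0.51 for Rpl39, 0.0299 to 0.28 for Rps10, 0.0900 to 0.40 for Rps19, 0.17 to 0.52 for Rpl22l1, 0.12 to 0.58 for Rps27l and -0.62 to -0.0597 for Rpl39l. Without knockout library 3 the log2 ratio of Rps27rt to Rps27 was 1.07, and without both libraries that stood apart that of Rpl3l to Rpl3 was -0.93. The cause of these changes was not tested, except that leaving out libraries or genes also leaves fewer to test. Depth limits Rpl36al and Rpl39l, with at most 70 reads in a library.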
